A study of Oryza sativa with 12 samples.

Results

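The PP2C protein phosphatases of rice were followed across flag leaves of 2 genotypes under 2 water conditions. A gene counted as a member where its RefSeq symbol or a synonym is PP2C plus a number, with or without the prefix Os, and where the array annotation ties at least 1 probe set to that gene alone. The gene table lists 60 such genes, and 55 of them were measured here, out of 17905 genes on the array. OsPP2C41, OsPP2C49, OsPP2C50, OsPP2C65 and OsPP2C77 had no such probe set and were not analysed here. Of the 55 measured members, 12 had several probe sets (72 probe sets over all members), and the brightest over the 12 arrays stood for the gene.

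Each of the 4 groups held 3 arrays, labelled as 3 biological replicates, of flag leaves from plants aged 10 weeks. PSARK::IPT plants that went 3 days without water before anthesis are called IPT_stressed, and their well-watered counterparts IPT_watered. The wild-type groups under the same conditions are WT_stressed and WT_watered. In PSARK::IPT plants a promoter that becomes active in ageing leaves drives isopentenyltransferase, an enzyme of cytokinin synthesis. The transgenic titles carry the code 5T, and neither the number of independent lines behind it nor pooling of plants is stated, so the p-values measure the spread between these arrays.

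PP2C enzymes are metal-dependent serine and threonine phosphatases and form one of the large phosphatase families of plants. The clade A members are the co-receptors of abscisic acid (ABA), the hormone of drought and seed dormancy. Without ABA they keep certain SnRK2 kinases, a family named SAPK in rice, dephosphorylated and inactive. Once ABA is bound, its PYL receptors hold the phosphatase, the kinases become active and phosphorylate bZIP factors that switch on protective genes. Many clade A genes are themselves transcribed more when ABA accumulates, which works as negative feedback. Members of other clades act in immunity, cell growth, anther development and stress signalling through MAP kinases.

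All values are log2 RMA values as deposited, so a difference of 1 stands for a doubling, and values of different probe sets are not set against each other. As whole flag leaves were measured, fewer cells of a type and less RNA per cell cannot be told apart. Groups are those of the labels throughout. One reporter probe set for a foreign sequence read 9.86 to 10.4 on IPT_stressed and 8.71 to 9.19 on WT_stressed arrays, against 1.99 to 2.15 on IPT_watered and 2.06 to 6.03 on WT_watered arrays. Its highest WT_watered value was that of replicate 3. A second foreign-sequence reporter read 7.63 to 8.49 on IPT_stressed and 7.03 to 8.20 on WT_stressed arrays. On IPT_watered arrays it read 1.96 to 2.22, and on WT_watered arrays 2.17 to 3.29. Both reporters followed the labelled water condition in both genotypes. What this means for the labels was not tested, and every difference below rests on them. The 2 labelled genotypes also differed in 3 technical measures. The hybridisation spike-ins averaged 7.77 to 8.35 on IPT arrays and 10.4 to 11.7 on WT arrays. The 3′ minus 5′ difference of the GAPDH control probe sets, which grows with shorter or degraded RNA, was 3.34 to 4.29 on IPT arrays and 4.86 to 7.30 on WT arrays. The spread over all probe sets (SD) was 2.17 to 2.22 on IPT arrays, against 1.91 to 1.97 on WT_stressed and 2.04 to 2.09 on WT_watered arrays. Over 8 flag leaf markers the mean value was 11.1 to 11.3 in all groups, with RBCS1 at background, whereas 7 or 8 of 10 panicle markers, 5 to 7 of 8 anther markers and 5 of 6 dividing-cell markers lay at background.

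The 3 ABA-linked members were higher in PSARK::IPT than in wild type, in both water conditions for OsPP2C09 and OsPP2C68, and in the watered condition for OsPP2C06. Neither genotype gave a called stress effect for any of them. OsPP2C06 (ABIL1, LOC4324201), named after the Arabidopsis ABI phosphatases, read 7.91, 8.50 and 8.01 on IPT_stressed arrays and 9.89, 9.47 and 8.92 on IPT_watered arrays, against 7.55, 7.80 and 7.76 on WT_stressed arrays and 8.10, 7.94 and 8.08 on WT_watered arrays. The IPT_watered values stood above all others, and the IPT_stressed arrays lay below them without overlap. Watered PSARK::IPT leaves exceeded watered wild type 2.62-fold (log2 difference 1.39 ± 0.22 SE, limma adjusted p = 0.00169, n = 3 each). Under stress the genotype difference was 0.43 ± 0.22, and limma did not call it (adjusted p = 0.127), although the arrays of both groups did not overlap.

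OsPP2C06 also had the largest stress difference among the members. In PSARK::IPT the stressed minus watered difference was -1.28 ± 0.22 on the log2 scale, just outside the threshold by limma (adjusted p = 0.0525). In wild type it was -0.33 ± 0.22 (limma adjusted p = 0.420). The averaged stress difference was -0.81 ± 0.16 (limma adjusted p = 0.0570), the lowest of the 55 members. The PSARK::IPT difference crossed the threshold with a trended robust variance (limma adjusted p = 0.0469), with array weights (9.88e-04), and without IPT_watered replicate 3 (0.0118), WT_stressed replicate 3 (0.0460) or IPT_stressed replicate 2 (0.00934). Compared directly between PSARK::IPT and wild type, the stress effects differed by -0.95 (95% interval -1.64 to -0.26), again the lowest of 55, which limma did not call (adjusted p = 0.264).

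OsPP2C09 (LOC4327465), a clade A phosphatase that restrains ABA signalling in rice, read 9.09, 9.25 and 8.69 on IPT_stressed arrays and 9.92, 9.57 and 8.76 on IPT_watered arrays, against 7.87, 8.06 and 6.86 on WT_stressed arrays and 7.70, 8.16 and 8.06 on WT_watered arrays. Every IPT array exceeded every WT array in this gene. The excess was 2.67-fold under stress (log2 difference 1.42 ± 0.34, limma adjusted p = 0.00568) and 2.73-fold with water (log2 difference 1.45 ± 0.34, limma adjusted p = 0.0116). Without IPT_watered replicate 1 the watered call was lost (limma adjusted p = 0.0545). OsPP2C09 differed between stressed and watered arrays by -0.41 ± 0.34 in PSARK::IPT and by -0.37 ± 0.34 in wild type, with overlapping arrays in both. Its stress effects differed by -0.03 between genotypes (95% interval -1.06 to 1.0).

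OsPP2C68 (OsPP108, OsSIPP2C1), a stress-inducible clade A phosphatase, was called higher in PSARK::IPT in both water conditions. It read 6.33, 6.56 and 6.58 on IPT_stressed arrays and 7.86, 7.78 and 5.43 on IPT_watered arrays, against 3.74, 4.90 and 3.84 on WT_stressed arrays and 3.98, 5.09 and 5.04 on WT_watered arrays. IPT arrays lay above WT arrays without overlap within each water condition, but IPT_watered replicate 3 stood clearly under the other IPT_watered arrays. The excess over wild type was 5.03-fold under stress (log2 difference 2.33 ± 0.56, limma adjusted p = 0.00637) and 4.99-fold with water (log2 difference 2.32 ± 0.56, limma adjusted p = 0.0147). The WT_stressed mean, 4.16 ± 0.64 (SD, n = 3), lay just above the background level of that group, 4.10. The watered call was lost without IPT_watered replicate 1 (limma adjusted p = 0.0661), IPT_watered replicate 2 (0.0666) or WT_watered replicate 1 (0.0594). Without IPT_watered replicate 3 the watered difference was 3.12 (limma adjusted p = 7.63e-04). Stressed and watered arrays differed by -0.53 ± 0.56 in PSARK::IPT and by -0.54 ± 0.56 in wild type, and the interval of the difference between these effects, -1.73 to 1.75, was too wide to exclude a large one in either direction.

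**Figure D1:**
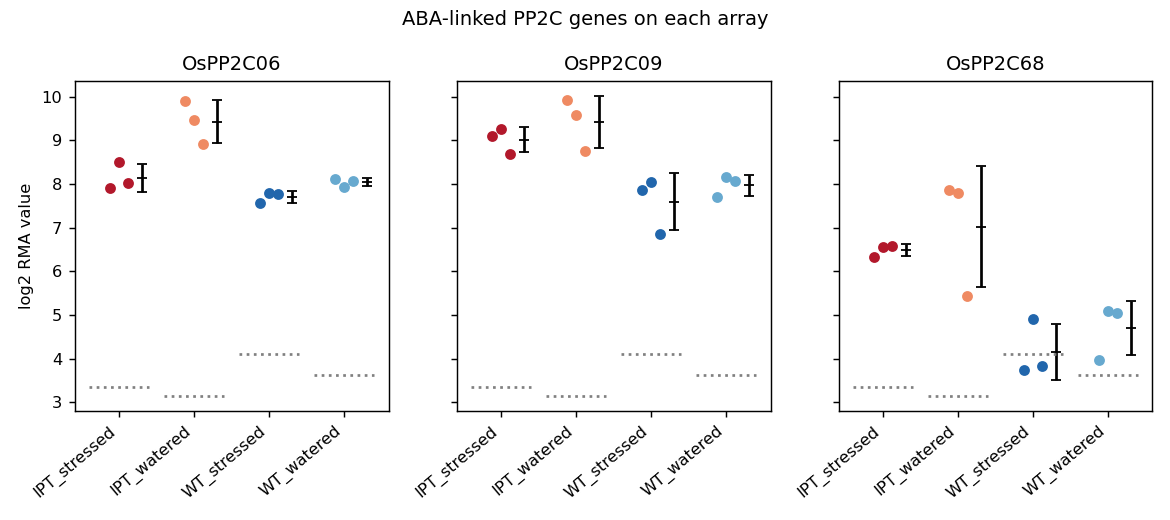
Log2 RMA values (vertical axis) of OsPP2C06, OsPP2C09 and OsPP2C68 on each array, with the mean ± SD of the 3 arrays of each group in black and the background level of each group as a dotted line. OsPP2C06 stands highest on IPT_watered arrays, and OsPP2C09 and OsPP2C68 are higher on IPT than on WT arrays in both water conditions.

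The other members counted with clade A did not all follow. OsPP2C53 (ABIL2), which acts downstream of the PYL receptors in stomatal and root traits, read 6.94, 6.99 and 6.80 on IPT_stressed arrays and 7.13, 7.26 and 6.98 on IPT_watered arrays, against 5.85, 5.78 and 6.45 on WT_stressed arrays and 6.45, 6.20 and 6.56 on WT_watered arrays. IPT and WT arrays did not overlap in either condition, and limma called the difference under stress (0.88 ± 0.18, adjusted p = 0.00236) and with water (0.72 ± 0.18, adjusted p = 0.0155). OsPP2C30, which binds the receptor OsPYL5 and the kinase SAPK2, differed between genotypes by -0.10 under stress (95% interval -1.05 to 0.84) and by 0.46 with water (-0.49 to 1.40). For OsPP2C08 the genotype differences were -0.27 (-0.97 to 0.43) and 0.12 (-0.58 to 0.81) in the same order. OsPP2C51, known from seed germination, lay at background in every group but IPT_watered, where it averaged 3.41 ± 0.22 (SD, n = 3). None of OsPP2C30, OsPP2C08 and OsPP2C51 was called in any comparison as reported.

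Across the family, genotype was the contrast in which members were called. With water, 22 of 55 members were called between PSARK::IPT and wild type, 20 higher and 2 lower, where limma called 20.4% of all genes (14.7% higher and 5.71% lower) and 19.2% of all probe sets. Under stress 33 of 55 members were called, 29 higher and 4 lower, where limma called 44.9% of all genes (35.2% higher and 9.71% lower) and 46.1% of all probe sets. The median member difference was 0.64 under stress, beside 0.31 over all genes, and 0.47 with water, beside 0.08 over all genes. A positive difference was seen in 43 of 55 members in each condition, beside 66.3% of all genes under stress and 57.1% with water. At a mean of at least 5, 78.0% of members and 81.8% of genes were positive under stress. With water these shares were 82.9% and 64.6%. Between groups that did not overlap, 30 members were higher and 4 lower under stress (38% and 13.6% of all genes), and 27 were higher and 4 lower with water (26.9% and 15.4% of all genes).

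These counts changed with a technical covariate and with single arrays. With the GAPDH 3′ minus 5′ difference as a covariate limma called 0 of 55 members in either condition, where it called 0.251% of all genes under stress and 0.0335% with water. An unadjusted p under 0.05 was found in 16 members under stress and 17 with water, beside 10396 and 8246 of 57194 probe sets. Of the called members 33 of 33 under stress and 21 of 22 with water kept their direction, and the median difference was 0.77 under stress and 0.45 with water, while the median SE grew to 0.53 under stress and 0.43 with water, against 0.23 without the covariate. The covariate separated the labelled genotypes without overlap, so that it and genotype can hardly be told apart. The watered count was 13 without IPT_watered replicate 1 or replicate 2 and 14 without WT_watered replicate 2. Calls over all genes fell in the same analyses, from 2635 higher and 1022 lower as reported. They were 1536 and 495 without IPT_watered replicate 1, and 1403 and 456 without its replicate 2. Without WT_watered replicate 2 they were 1754 and 599. Scaling moved all genes together: the median over all genes under stress was 0.31 as deposited, 0.54 with equal array medians and 0.09 after quantile normalization, and the members' median exceeded it by 0.32, 0.32 and 0.22 in the same order. With water it was 0.08, 0.18 and 0.02, and the members' median exceeded it by 0.39, 0.39 and 0.33. The higher share of called genes changed with it, being 78.4% under stress and 72.1% with water as deposited, 92.9% and 83.6% with equal array medians, and 64.8% and 54.9% after quantile normalization.

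**Figure D2:**
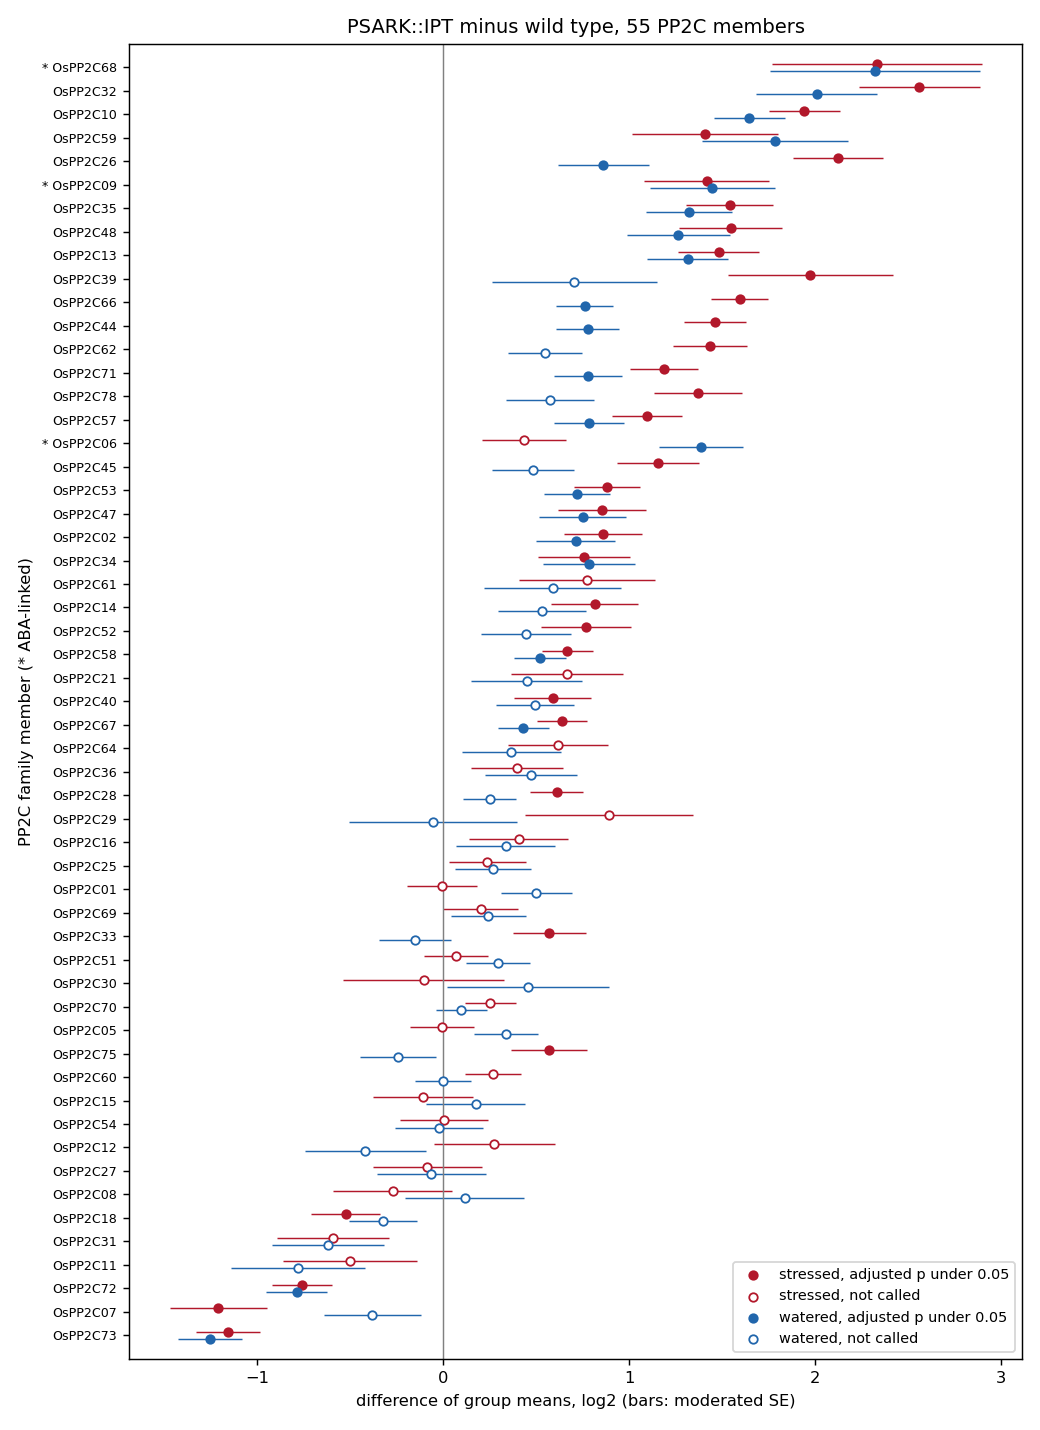
Difference of group means between PSARK::IPT and wild type (log2, horizontal axis, bars are limma's moderated SE) for the 55 members under stress (red) and with water (blue); filled points passed an adjusted p of 0.05 and an asterisk marks the ABA-linked members. Most points lie right of 0 (43 of 55 in each condition, beside 66.3% of all genes under stress and 57.1% with water). OsPP2C06 is the member called with water but not under stress.

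Beside the ABA-linked genes, OsPP2C32, OsPP2C10, OsPP2C59, OsPP2C26 and OsPP2C13 were called higher in PSARK::IPT in both water conditions. OsPP2C32 read 5.82, 6.21 and 6.26 on IPT_stressed arrays and 6.19, 6.83 and 5.52 on IPT_watered arrays, against 3.23, 3.90 and 3.48 on WT_stressed arrays and 4.08, 3.73 and 4.72 on WT_watered arrays. The WT_stressed mean lay at background, so PSARK::IPT exceeded it at least 3.99-fold, and the watered excess was 4.02-fold. OsPP2C10 read 9.28, 9.37 and 9.07 on IPT_stressed arrays and 9.45, 9.60 and 9.27 on IPT_watered arrays, against 7.60, 7.16 and 7.14 on WT_stressed arrays and 8.0, 7.40 and 7.99 on WT_watered arrays. It was 3.84-fold higher under stress (log2 difference 1.94 ± 0.19) and 3.13-fold higher with water (1.65 ± 0.19), with limma adjusted p = 3.44e-05 and 2.44e-04 in the same order, and the arrays did not overlap. Background is the 95th percentile of group means of 106 foreign-sequence probe sets, and no fold is given where the bound falls under 1.

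OsPP2C59 read 5.42, 4.10 and 4.49 on IPT_stressed arrays and 4.91, 5.09 and 3.93 on IPT_watered arrays, against 2.79, 3.0 and 4.0 on WT_stressed arrays and 2.86, 3.01 and 2.71 on WT_watered arrays. Both wild-type means lay at background, which makes PSARK::IPT at least 1.49-fold higher under stress and at least 2.04-fold higher with water (limma adjusted p = 0.0131 and 0.00918). OsPP2C26 read 5.91, 5.82 and 6.14 on IPT_stressed arrays and 5.53, 5.36 and 5.50 on IPT_watered arrays, against 4.33, 3.50 and 3.67 on WT_stressed arrays and 4.39, 4.28 and 5.13 on WT_watered arrays. With water its difference was 0.86 ± 0.24, under stress 2.12 ± 0.24, where WT_stressed lay at background and the excess was at least 3.63-fold. With the GAPDH covariate its watered difference was -0.066. OsPP2C13 (DCW11), linked to cytoplasmic male sterility in rice anthers, read 5.60, 5.57 and 5.38 on IPT_stressed arrays and 5.77, 5.94 and 5.73 on IPT_watered arrays, against 4.31, 3.44 and 4.35 on WT_stressed arrays and 4.63, 4.23 and 4.65 on WT_watered arrays. Its WT_stressed mean lay at background, the excess under stress was at least 2.67-fold, and the watered excess was 2.49-fold.

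OsPP2C35 and OsPP2C34 were also called higher in PSARK::IPT in both conditions. OsPP2C35 (XB15), which dephosphorylates the rice immune receptor XA21 and dampens its signalling, read 6.82, 7.03 and 6.99 on IPT_stressed arrays and 6.81, 7.21 and 6.73 on IPT_watered arrays, against 5.87, 5.42 and 4.94 on WT_stressed arrays and 5.91, 5.60 and 5.27 on WT_watered arrays. Every IPT array exceeded every WT array, by 2.91-fold on average under stress and 2.50-fold with water (limma adjusted p = 4.23e-04 and 0.00272). OsPP2C34 (BIPP2C2), named for its induction by the defence activator benzothiadiazole, read 6.82, 6.56 and 7.03 on IPT_stressed arrays and 7.08, 7.38 and 6.64 on IPT_watered arrays, against 5.85, 6.23 and 6.05 on WT_stressed arrays and 5.82, 6.16 and 6.77 on WT_watered arrays. Its groups overlapped with water, yet limma called both differences (0.76 under stress, adjusted p = 0.0265, and 0.78 with water, adjusted p = 0.0450). The watered call of OsPP2C34 was lost in 7 of the 12 analyses that left out 1 array, and both calls were lost after quantile normalization.

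Several further members were called higher in PSARK::IPT in both conditions, with no role stated in the sources used here. OsPP2C48 read 8.35, 8.49 and 7.99 on IPT_stressed arrays and 8.70, 9.12 and 7.79 on IPT_watered arrays, against 6.76, 6.83 and 6.62 on WT_stressed arrays and 7.38, 7.0 and 7.43 on WT_watered arrays. OsPP2C44 read 7.96, 8.26 and 7.90 on IPT_stressed arrays and 8.06, 8.37 and 8.06 on IPT_watered arrays, against 6.88, 6.55 and 6.31 on WT_stressed arrays and 7.27, 7.48 and 7.40 on WT_watered arrays. OsPP2C66 read 6.43, 6.37 and 6.27 on IPT_stressed arrays and 6.24, 6.35 and 6.33 on IPT_watered arrays, against 4.57, 4.61 and 5.11 on WT_stressed arrays and 5.64, 5.35 and 5.63 on WT_watered arrays. In these members IPT and WT arrays did not overlap, and PSARK::IPT was 2.92-fold, 2.75-fold and 3.02-fold higher under stress, and 2.40-fold, 1.71-fold and 1.70-fold higher with water. WT_stressed arrays were the lowest group in all of them. OsPP2C57 read 7.76, 7.75 and 7.84 on IPT_stressed arrays and 7.77, 7.91 and 7.75 on IPT_watered arrays, against 6.97, 6.80 and 6.30 on WT_stressed arrays and 7.35, 6.70 and 7.03 on WT_watered arrays. OsPP2C71 read 7.76, 8.10 and 7.79 on IPT_stressed arrays and 7.74, 8.22 and 8.03 on IPT_watered arrays, against 6.79, 6.41 and 6.89 on WT_stressed arrays and 7.44, 6.96 and 7.25 on WT_watered arrays. The IPT values of OsPP2C57 stayed within a narrow range, 7.75 to 7.91.

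The values of OsPP2C47 were 8.38, 8.77 and 8.65 on IPT_stressed arrays and 8.84, 9.16 and 8.33 on IPT_watered arrays, against 7.28, 7.89 and 8.08 on WT_stressed arrays and 7.91, 8.19 and 7.98 on WT_watered arrays. For OsPP2C02 they were 7.44, 7.15 and 7.63 on IPT_stressed arrays and 7.84, 7.94 and 7.23 on IPT_watered arrays, against 6.42, 6.89 and 6.32 on WT_stressed arrays and 6.86, 7.02 and 6.99 on WT_watered arrays. Arrays of IPT lay above those of WT within each condition in both genes. The values of OsPP2C58 were 7.92, 7.64 and 7.77 on IPT_stressed arrays and 7.69, 7.82 and 7.58 on IPT_watered arrays, against 6.97, 7.08 and 7.27 on WT_stressed arrays and 7.29, 7.24 and 6.98 on WT_watered arrays. For OsPP2C67 they were 6.23, 5.92 and 6.02 on IPT_stressed arrays and 5.94, 5.92 and 5.93 on IPT_watered arrays, against 5.56, 5.35 and 5.34 on WT_stressed arrays and 5.50, 5.29 and 5.70 on WT_watered arrays. The differences of OsPP2C47, OsPP2C02, OsPP2C58 and OsPP2C67 were 0.85, 0.86, 0.67 and 0.64 under stress, and 0.75, 0.71, 0.52 and 0.43 with water. The watered calls of OsPP2C47 and OsPP2C67 were each lost in 8 of the 12 analyses that left out 1 array.

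OsPP2C72 and OsPP2C73 were called lower in PSARK::IPT in both conditions. OsPP2C72 read 7.58, 7.59 and 7.56 on IPT_stressed arrays and 7.70, 7.98 and 7.38 on IPT_watered arrays, against 8.58, 8.32 and 8.10 on WT_stressed arrays and 8.46, 8.50 and 8.47 on WT_watered arrays. It differed by -0.76 ± 0.16 under stress and -0.79 ± 0.16 with water (limma adjusted p = 0.00330 and 0.00645). OsPP2C73 read 3.56, 3.34 and 3.48 on IPT_stressed arrays and 3.25, 2.99 and 3.47 on IPT_watered arrays, against 4.65, 4.72 and 4.47 on WT_stressed arrays and 4.82, 4.24 and 4.40 on WT_watered arrays. It differed by -1.15 ± 0.17 under stress and -1.25 ± 0.17 with water (limma adjusted p = 3.78e-04 and 6.36e-04), on values close to background. WT arrays exceeded IPT arrays without overlap in both genes.

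Under stress alone 12 members were called, 10 higher and 2 lower. A call in one condition only is no test of a difference between conditions. None of these 12 members passed the test of the difference of the stress effects. Of the stressed calls, 63.6% in the members and 36.6% over all genes were also called with water in the same direction. Calls under stress alone were therefore a smaller part of the stressed calls in the members than over all genes, which was not tested. OsPP2C39 read 7.53, 7.80 and 7.92 on IPT_stressed arrays and 6.76, 6.53 and 7.44 on IPT_watered arrays, against 5.19, 5.13 and 7.02 on WT_stressed arrays and 6.43, 5.64 and 6.54 on WT_watered arrays. Its stressed difference was 3.92-fold (limma adjusted p = 0.00431), while the watered arrays overlapped, and WT_stressed replicate 3 stood apart from the other 2 WT_stressed arrays. OsPP2C62 read 6.41, 5.89 and 6.43 on IPT_stressed arrays and 6.01, 5.25 and 5.64 on IPT_watered arrays, against 4.85, 4.87 and 4.69 on WT_stressed arrays and 5.07, 4.94 and 5.24 on WT_watered arrays. OsPP2C78 read 6.38, 5.59 and 6.27 on IPT_stressed arrays and 5.56, 5.51 and 5.39 on IPT_watered arrays, against 4.77, 4.32 and 5.04 on WT_stressed arrays and 4.85, 4.66 and 5.24 on WT_watered arrays. OsPP2C45 read 8.74, 8.76 and 8.81 on IPT_stressed arrays and 8.72, 8.90 and 8.58 on IPT_watered arrays, against 8.11, 7.69 and 7.05 on WT_stressed arrays and 8.32, 8.39 and 8.03 on WT_watered arrays. In these 3 members the arrays of the genotypes did not overlap in either condition, and the stressed excess was 2.71-fold, 2.59-fold and 2.23-fold (limma adjusted p = 2.53e-04, 9.16e-04 and 0.00172).

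OsPP2C40 (OsPP65), a negative regulator of salt and osmotic stress tolerance in rice, read 7.72, 7.97 and 7.91 on IPT_stressed arrays and 8.13, 8.36 and 7.63 on IPT_watered arrays, against 7.06, 7.36 and 7.42 on WT_stressed arrays and 7.78, 7.17 and 7.70 on WT_watered arrays. Only the stressed arrays of the 2 genotypes were apart, by 0.59 ± 0.21 (limma adjusted p = 0.0369). That call was lost in 5 of the 12 analyses that left out 1 array and after quantile normalization. OsPP2C14 read 7.86, 7.42 and 7.48 on IPT_stressed arrays and 7.08, 7.48 and 7.01 on IPT_watered arrays, against 6.55, 6.57 and 7.20 on WT_stressed arrays and 6.99, 6.24 and 6.75 on WT_watered arrays. OsPP2C52 read 7.05, 7.25 and 6.96 on IPT_stressed arrays and 7.28, 7.76 and 7.10 on IPT_watered arrays, against 6.35, 6.74 and 5.87 on WT_stressed arrays and 6.90, 7.27 and 6.64 on WT_watered arrays. OsPP2C28 read 7.70, 7.50 and 7.74 on IPT_stressed arrays and 7.59, 7.57 and 7.38 on IPT_watered arrays, against 6.74, 7.14 and 7.21 on WT_stressed arrays and 7.24, 7.32 and 7.22 on WT_watered arrays. The stressed differences of OsPP2C14, OsPP2C52 and OsPP2C28 were 0.81, 0.77 and 0.61. OsPP2C75 read 5.15, 4.79 and 4.91 on IPT_stressed arrays and 5.16, 5.39 and 4.75 on IPT_watered arrays, against 4.46, 4.01 and 4.67 on WT_stressed arrays and 5.16, 5.55 and 5.32 on WT_watered arrays. OsPP2C33 read 3.85, 3.12 and 3.53 on IPT_stressed arrays and 3.06, 2.85 and 2.64 on IPT_watered arrays, against 2.82, 3.01 and 2.97 on WT_stressed arrays and 2.72, 3.09 and 3.20 on WT_watered arrays. OsPP2C75 was low on WT_stressed arrays, and OsPP2C33 had a mean above background in IPT_stressed alone, at 3.50 ± 0.37 (SD, n = 3).

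The lower members called under stress alone were OsPP2C07 and OsPP2C18. OsPP2C07 read 6.92, 7.02 and 6.99 on IPT_stressed arrays and 7.44, 7.47 and 7.36 on IPT_watered arrays, against 8.01, 7.57 and 8.97 on WT_stressed arrays and 7.74, 7.86 and 7.81 on WT_watered arrays. WT_stressed replicate 3 was the highest array, IPT arrays lay under WT arrays in both conditions, and the stressed difference was -1.21 ± 0.26 (limma adjusted p = 0.00346). OsPP2C18 read 3.70, 3.44 and 3.51 on IPT_stressed arrays and 3.67, 3.65 and 3.48 on IPT_watered arrays, against 4.46, 3.81 and 3.94 on WT_stressed arrays and 4.07, 4.08 and 3.62 on WT_watered arrays. Its WT_stressed mean lay just under the background level of that group, so the difference of -0.52 carries no fold.

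The 2 genotype comparisons shared no arrays. Called in both, with the same direction, were 21 members, which is 95.5% of the watered and 63.6% of the stressed calls. Over all genes 16.4% were called in both with the same direction, which is 80.4% of the watered and 36.6% of the stressed calls, and the members' shares were not tested against these. OsPP2C06 was called with water alone, 12 members under stress alone and 21 members in neither. Across every alternative but the GAPDH covariate, 17 of the 33 stressed calls held, among them OsPP2C09 and OsPP2C68, and 10 of the 22 watered calls, among them OsPP2C06. At least 1 of the 12 analyses without an array ended 8 of the stressed calls, most often those of OsPP2C40 and OsPP2C75 (5 analyses each), and 11 of the watered calls, most often those of OsPP2C47 and OsPP2C67 (8 each), OsPP2C34 (7) and OsPP2C02 (6). Heat-map rows for OsPP2C68, OsPP2C09 and OsPP2C06 show IPT_watered replicate 3 under the other IPT_watered arrays in each of the ABA-linked members.

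**Figure D3:**
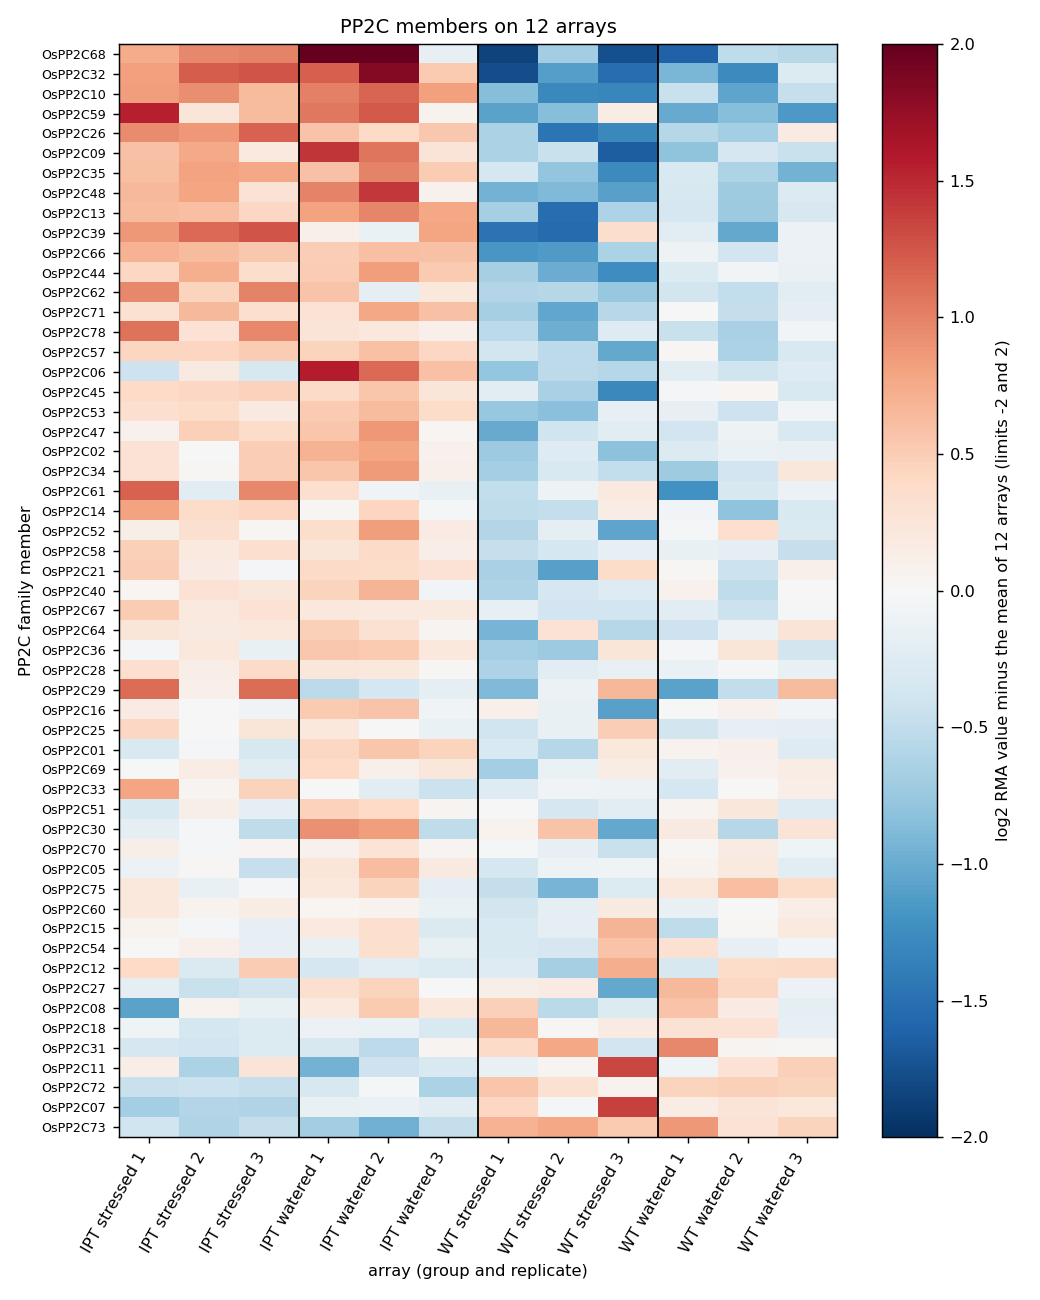
Deviation of each member (rows, ordered by the mean genotype difference) from its own mean of 12 arrays, in log2 RMA units, on each array (columns, by group and replicate). The upper rows are red on IPT and blue on WT arrays, and OsPP2C73, OsPP2C07 and OsPP2C72 at the bottom show the opposite.

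Where a member had further probe sets, these did not always give the same difference. For OsPP2C71, whose brightest probe set has an _x suffix (shared sequence), the second probe set differed by -0.46 under stress and -0.83 with water (limma adjusted p = 0.0507 and 0.00740), against 1.19 and 0.78 for the brightest. The call of OsPP2C71 in either direction is therefore uncertain. In OsPP2C75 a second probe set gave at least 1.18 under stress, where its WT_stressed mean lay at background, and 1.37 with water (limma adjusted p = 7.30e-04 and 0.00772), against 0.57 and -0.24. The second probe set of OsPP2C07 differed by -0.18 under stress, against -1.21. The second probe set of OsPP2C47 gave 2.05 under stress and 1.68 with water, against 0.85 and 0.75 for the brightest. That of OsPP2C66 lay at background in both wild-type groups and gave at least 0.90 under stress and at least 1.74 with water, against 1.59 and 0.76. In OsPP2C39 the second probe set lay at background in WT_stressed. Its differences were at least 1.49 under stress and 1.05 with water (limma adjusted p = 1.21e-04 and 0.0206). The brightest gave 1.97 and 0.71, so whether OsPP2C39 was called with water depended on the probe set. A probe set of OsPP2C14 at background in every group gave -0.76 under stress. Among the brightest probe sets, 5 carried an _s or _x suffix and 5 an _a suffix, so signal from related transcripts cannot be told apart there.

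The size of a member's genotype difference was read beside its signal, since all genes shifted with signal. Among all genes with a mean of 5 to 7 the median difference was 0.65 under stress and 0.24 with water, and the 17 members in that range had medians of 0.77 and 0.55. Between 7 and 9 the medians over all genes were 0.46 and 0.16, and those of the 23 members 0.61 and 0.50. For genes with a mean between 3 and 5 they were 0.18 and 0.07, beside 0.57 and 0.45 for 11 members. Members at background numbered 4 of 55 in IPT_stressed, 4 in IPT_watered, 11 in WT_stressed and 6 in WT_watered, and the background level itself was 3.34, 3.15, 4.10 and 3.62 in that order. The share of the technical differences between arrays in these shifts was not tested.

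**Figure D4:**
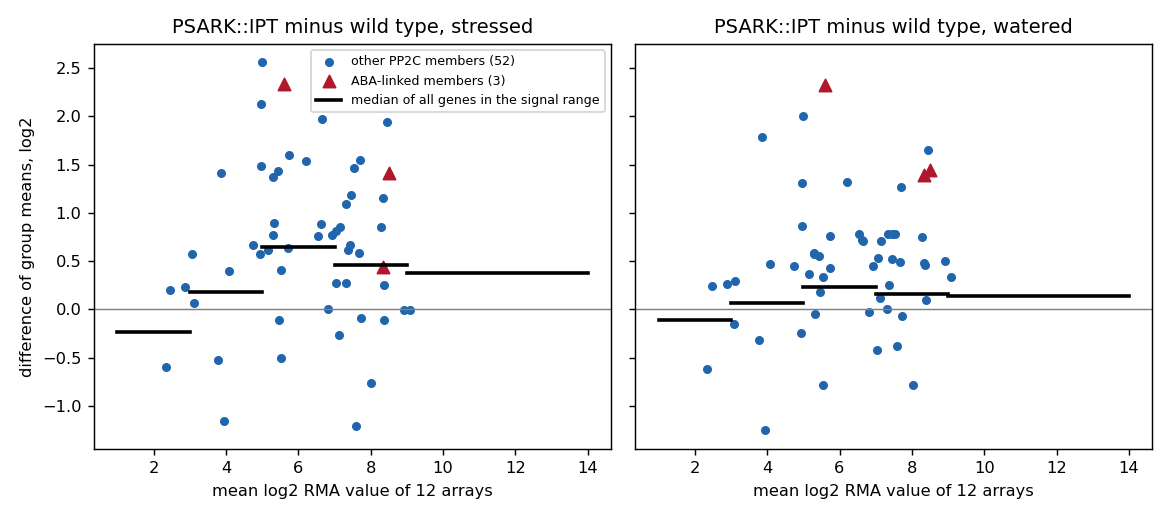
Genotype difference of each member (log2, vertical axis) against its mean log2 RMA value of 12 arrays, under stress (left) and with water (right), with the ABA-linked members as triangles and the median over all genes in each signal range as a black line. OsPP2C68 and OsPP2C09 lie well above the lines in both panels, and OsPP2C06 in the watered panel.

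Between stressed and watered leaves no PP2C member passed the threshold in either genotype. In PSARK::IPT limma called 0 of 55 members, where it called 0.19% of all genes and 0.177% of probe sets. An unadjusted p under 0.05 was found in 8 members, beside 4589 of 57194 probe sets. In wild type limma called 0 of 55, where it called 0.603% of all genes and 0.42% of probe sets. Again 8 members had an unadjusted p under 0.05, beside 11502 of 57194 probe sets. The averaged stress effect gave 0 of 55 as well, beside 0.62% of genes and 0.409% of probe sets. Here 15 members and 7916 of 57194 probe sets had an unadjusted p under 0.05. The median member difference was -0.11 in PSARK::IPT (0.01 over all genes) and -0.24 in wild type (-0.18 over all genes). Negative were 35 and 45 of 55 members in the same order, beside 8755 and 12351 of 17905 genes. At a mean of at least 5 they were 26 and 35 of 41 members, beside 4709 and 8976 of 10547 genes. In wild type 8 members were lower on stressed arrays without overlap and 0 higher (15.3% and 4.03% of all genes), and in PSARK::IPT 7 were lower and 5 higher (10.2% and 15.3%).

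The members nearest the threshold in wild type were all lower under stress. OsPP2C66 differed by -0.78 ± 0.15, OsPP2C44 by -0.81 ± 0.17 and OsPP2C75 by -0.96 ± 0.21 (limma adjusted p = 0.0534, 0.0593 and 0.0636). WT_stressed and WT_watered arrays did not overlap in any of them. With equal array medians these 3 were called (2.78% of all genes), and without WT_stressed replicate 3 they were called together with OsPP2C53, which made 4 members (5.01% of all genes). OsPP2C27, which acts in cold signalling through OsMAPK3, read 7.56, 7.29 and 7.37 on IPT_stressed arrays and 8.05, 8.18 and 7.72 on IPT_watered arrays, against 7.86, 7.90 and 6.71 on WT_stressed arrays and 8.38, 8.15 and 7.62 on WT_watered arrays. Its difference was -0.58 in PSARK::IPT and -0.56 in wild type, and the IPT arrays did not overlap, but limma called neither.

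In PSARK::IPT the largest positive stress difference was that of OsPP2C29, which read 6.45, 5.44 and 6.45 on IPT_stressed arrays and 4.81, 4.97 and 5.14 on IPT_watered arrays, against 4.45, 5.21 and 6.0 on WT_stressed arrays and 4.27, 4.84 and 5.97 on WT_watered arrays. IPT_stressed lay above IPT_watered without overlap, yet the difference of 1.14 ± 0.45 was not called (limma adjusted p = 0.510), and the WT arrays were widely spread. OsPP2C01 read 8.62, 8.88 and 8.60 on IPT_stressed arrays and 9.34, 9.49 and 9.37 on IPT_watered arrays, against 8.62, 8.35 and 9.14 on WT_stressed arrays and 9.0, 9.02 and 8.67 on WT_watered arrays. Its stress difference in PSARK::IPT was -0.70 ± 0.19 (limma adjusted p = 0.224), with no overlap. OsPP2C61 read 6.47, 5.06 and 6.25 on IPT_stressed arrays and 5.63, 5.22 and 5.13 on IPT_watered arrays, against 4.79, 5.18 and 5.49 on WT_stressed arrays and 4.08, 4.97 and 5.17 on WT_watered arrays. Its groups overlapped in both stress comparisons. With array weights 12 of 55 members were called in PSARK::IPT, 5 higher and 7 lower, where 15.9% of all genes were called, against 0.19% without weights. OsPP2C06 was among the lower.

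Other members left uncalled were far apart on single arrays. OsPP2C11 read 5.66, 4.90 and 5.78 on IPT_stressed arrays and 4.59, 5.11 and 5.23 on IPT_watered arrays, against 5.39, 5.59 and 6.86 on WT_stressed arrays and 5.45, 5.82 and 6.0 on WT_watered arrays. WT_stressed replicate 3 was the highest array, and the watered genotype difference of -0.78 was not called (limma adjusted p = 0.150). OsPP2C31 read 2.0, 1.95 and 2.06 on IPT_stressed arrays and 2.01, 1.82 and 2.39 on IPT_watered arrays, against 2.72, 3.11 and 1.96 on WT_stressed arrays and 3.31, 2.40 and 2.36 on WT_watered arrays. All of its group means lay at background. OsPP2C12 read 7.44, 6.76 and 7.55 on IPT_stressed arrays and 6.71, 6.83 and 6.76 on IPT_watered arrays, against 6.79, 6.37 and 7.76 on WT_stressed arrays and 6.72, 7.41 and 7.42 on WT_watered arrays. The other 14 members, OsPP2C05, OsPP2C08, OsPP2C15, OsPP2C16, OsPP2C21, OsPP2C25, OsPP2C30, OsPP2C36, OsPP2C51, OsPP2C54, OsPP2C60, OsPP2C64, OsPP2C69 and OsPP2C70, were called in no comparison as reported. With array weights OsPP2C05, OsPP2C36 and OsPP2C51 were called lower on stressed arrays in PSARK::IPT. Their genotype differences ran from -0.27 to 0.66 under stress and from -0.02 to 0.47 with water, and their stress differences from -0.69 to 0.19 in PSARK::IPT and from -0.38 to 0.22 in wild type.

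**Figure D5:**
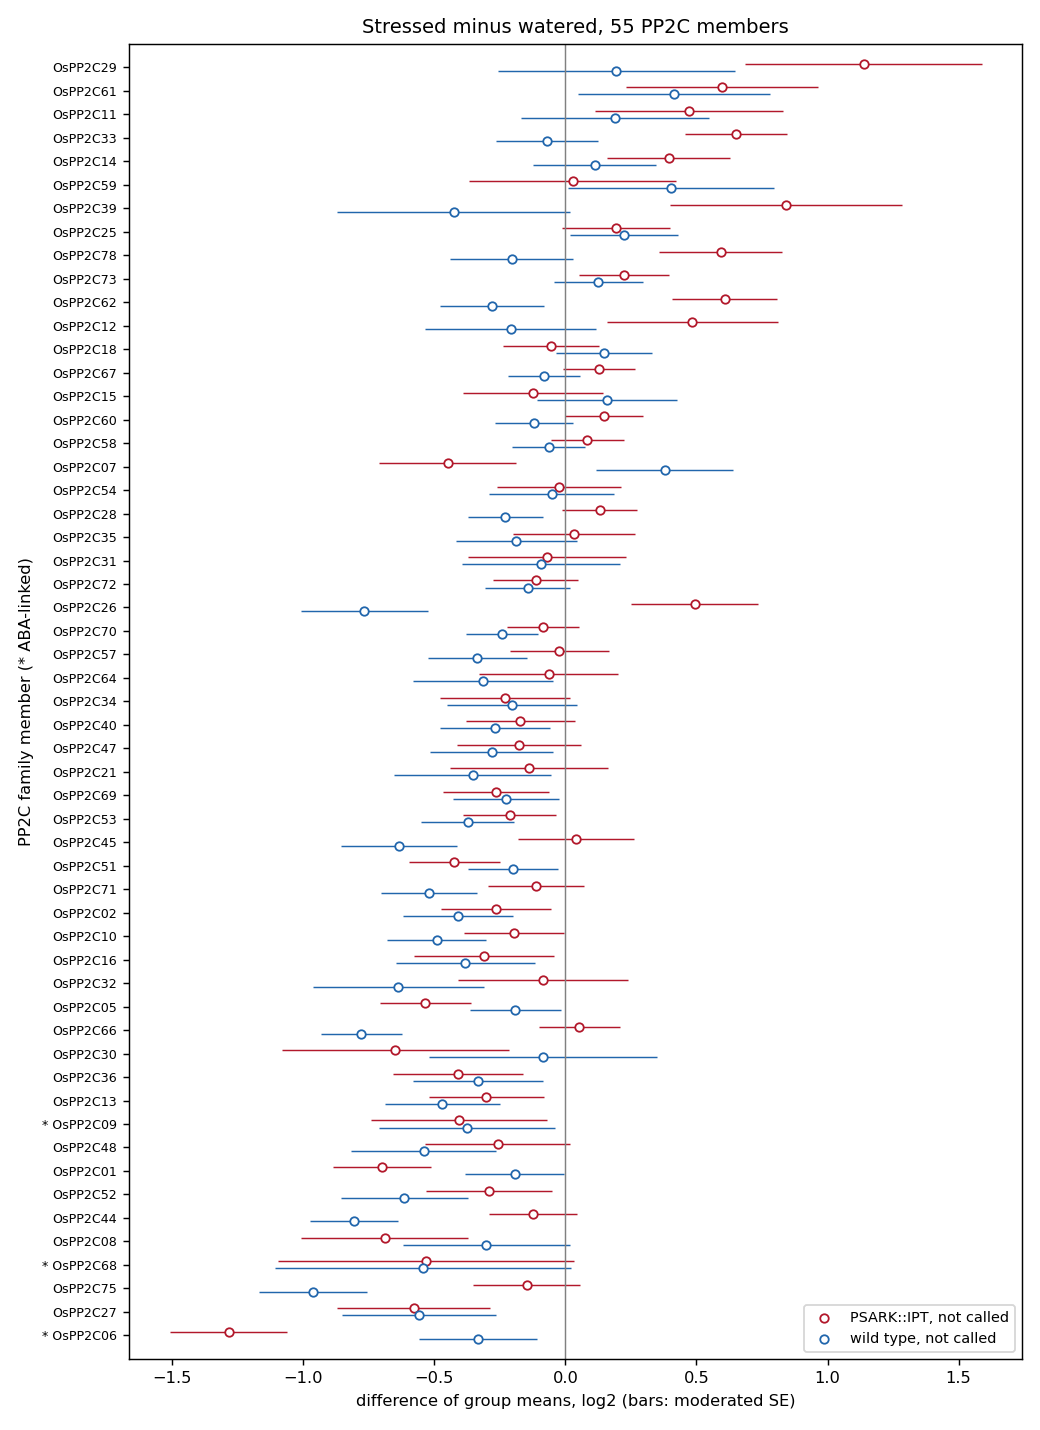
Difference of group means between stressed and watered arrays (log2, horizontal axis, bars are limma's moderated SE) for the 55 members in PSARK::IPT (red) and wild type (blue); open points did not pass an adjusted p of 0.05 and an asterisk marks the ABA-linked members. No point is filled, and OsPP2C06 in PSARK::IPT lies farthest to the left at -1.28.

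The stress effects themselves were compared between genotypes with an interaction contrast, and limma called 0 of 55 members and 0% of all probe sets, with 9 members and 8178 of 57194 probe sets at an unadjusted p under 0.05. The median over the members was 0.16, beside 0.21 over all genes, and it was -0.05 after quantile normalization. OsPP2C26 and OsPP2C66 came closest (1.26 ± 0.34 and 0.83 ± 0.22, limma adjusted p = 0.237 for both), the value of OsPP2C26 resting on a WT_stressed mean at background. OsPP2C06 and OsPP2C07 had the most negative values, -0.95 and -0.83. For the median member the 95% interval reached 0.72 on either side of the estimate with 3 arrays a group.

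The rest of the ABA pathway was read from lists of 26 genes on the array. The stress comparisons and the difference of the stress effects called 0 of 26. Over all genes these called 0.19% in PSARK::IPT, 0.603% in wild type, 0.62% averaged over both, and 0% for the difference. Between genotypes 10 of 26 were called higher and 4 lower in PSARK::IPT under stress, beside 35.2% and 9.71% of all genes. With water 7 were higher and 2 lower, beside 14.7% and 5.71%. Of the 4 lower under stress, RAB16D and rab25 lay at background in every group. The receptor OsPYL5 was higher in PSARK::IPT than in wild type by 1.27 ± 0.28 on stressed arrays (limma adjusted p = 0.00422). On watered arrays its genotype difference was 0.68 (limma adjusted p = 0.115). The SAPK kinases are a family that includes substrates of clade A phosphatases. Of 10, 6 were higher and 2 lower in PSARK::IPT than in wild type under stress, where 44.9% of all genes were called. With water 4 were higher and 2 lower, where 20.4% were called. OsSAPK9 differed between genotypes by -2.08 ± 0.27 and -1.69 ± 0.27, and OsSAPK8 by 0.74 ± 0.12 and 0.52 ± 0.12, with the stressed value before the watered one. Their limma adjusted p-values were 1.73e-04 and 0.00165 for OsSAPK9, and 8.17e-04 and 0.0132 for OsSAPK8.

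Of the 3 ABA response factors OsABF2, also known as OsbZIP23, was higher in PSARK::IPT in both conditions. Its genotype difference was 1.39 ± 0.35 under stress and 1.47 ± 0.35 with water (limma adjusted p = 0.00788 and 0.0134). The ABA synthesis gene OsABA1, zeaxanthin epoxidase, was called in no comparison. Of 2 ABA breakdown genes OsABA8ox2 was higher in PSARK::IPT than in wild type, by 0.73 under stress and 0.58 with water (limma adjusted p = 0.00794 and 0.0452). Among 9 ABA-responsive protection genes, 1 was higher and 2 lower in PSARK::IPT under stress (44.9% of all genes called). With water 1 was higher in PSARK::IPT (20.4% of all genes called). The dehydrin gene OsDhn1 differed between genotypes by 1.39 ± 0.32 with water (limma adjusted p = 0.0116). The 2 lower ones, RAB16D (-0.51) and rab25 (-0.37), lay at background in every group. So did Osem, OsLEA19 and RAB16B, while salT and RAB16C lay at background in 1 group and RAB21 in 2. Only OsDhn1 of this list lay above background in every group. OsDhn1 also had the smallest p of its list in PSARK::IPT and over both genotypes, with stressed minus watered differences of -1.35 and -1.09 that limma did not call (adjusted p = 0.152 and 0.0663).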

How the data were processed

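Flag leaf RNA was hybridised to 12 Affymetrix rice arrays, 3 in each of 4 groups given by the labels. The authors deposited 1 table of log2 values made with RMA, per the submitters' processing notes; the software and version are not given in the sources used here. Of 57381 probe sets, 123 controls and 64 reporters were kept as checks and 57194 were tested as deposited, with no filter. In the array annotation 22436 of these had a single gene, 95 had more than 1, and 34663 carried no listed gene; names come from a RefSeq table of assembly ASM3414082v1, and no coordinates or sequences are printed.

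One mean per group was fitted over the 12 arrays with limma 3.58.1 in R 4.3.3 (lmFit, eBayes), tested on simulated data. Calls are Benjamini-Hochberg adjusted p under 0.05 over all 57194 probe sets. Folds are back-transformed log2 differences. Values are given per array for the ABA-linked members, every called member, and the 2 other members with the largest difference in each comparison. Alternatives covered scaling, filtering, variance, covariates and leaving out each array. The number of arrays limits the precision. Members and lists were chosen with earlier results of these data known; 3 list matches that proved to be other genes were dropped.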

Additional observations from a re-analysis of the deposited data

How the results depend on the processing

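Between genotypes, the number of called members with water was 22, and 13 to 26 when 1 array was left out. Under stress it was 33, and 26 to 38 in the same way. Calls over all genes moved too. With water they were 2635 higher and 1022 lower, and 3424 and 1457 without WT_stressed replicate 3. Under stress they were 6309 and 1739, and 5015 and 1137 without IPT_stressed replicate 1. With the GAPDH difference as a covariate both member counts were 0. The smallest limma adjusted p was then 0.0726 (OsPP2C58) under stress and 0.110 (OsPP2C59) with water. That covariate used the bright GAPDH control pair. A second pair on the array read 1.94 to 3.19 throughout, and with its difference, an alternative chosen after seeing the data, 33 members were called under stress and 18 with water. Over all genes the second pair gave 6520 higher and 1910 lower under stress, and 2123 and 822 with water. Quantile normalization gave 22 members under stress and 15 with water. Over all genes it gave 3105 higher and 1689 lower under stress, and 1541 and 1267 with water. The stress effect in PSARK::IPT, with 0 members called as reported, gave 1 with a trended robust variance, 12 with array weights, 1 with a replicate block, and 0 to 1 without 1 array. Over all genes these gave 51 higher and 3 lower, 1805 and 1048, 121 and 20, and 400 and 53 without IPT_stressed replicate 2. In wild type the stress effect gave 3 members with equal array medians, 2 with the second GAPDH pair and 0 to 4 without 1 array. Over all genes these gave 12 higher and 486 lower, 20 and 242, and 67 and 830 without WT_stressed replicate 3. Averaged over genotypes the stress effect gave 1 member with equal array medians, 1 with array weights, 1 with the second GAPDH pair and 0 to 3 without 1 array. Over all genes these gave 46 higher and 73 lower, 100 and 126, 76 and 118, and 121 and 360 without WT_stressed replicate 3. The difference of the stress effects stayed at 0 called members in each alternative run.

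Directions turned in few single members. The watered genotype difference of OsPP2C26 was -0.066 with the GAPDH covariate, and that of OsPP2C71 was -0.026 with the mean of its probe sets. The difference of stress effects, close to 0 as reported, was 0.10 for OsPP2C09 with equal array medians and -0.40 to 0.22 with 1 array left out, above 0 in 6 of those analyses. For OsPP2C68 it was -0.089 after quantile normalization, -0.48 with array weights, -0.064 with the second GAPDH pair, and -0.79 to 0.43 with 1 array left out, below 0 in 7 of those analyses. The causes of these changes were not tested.

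Arrays with the same replicate number were not treated as pairs. Deviations from group means correlated at -0.10 to 0.19 over 18 such pairs (median 0.09), with 9 over 0.1. Over 36 pairs with different numbers they correlated at -0.23 to 0.15 (median -0.02), with 1 over 0.1. In addition, 11 of 12 arrays correlated best with arrays of their own number. The labels do not say what arrays of the same number share, and the main fit did not include the number. With a replicate block 31 members were called under stress and 22 with water between genotypes, and the stress effect of OsPP2C06 in PSARK::IPT passed (limma adjusted p = 0.0450). Between genotypes the block gave 6505 genes higher and 1735 lower under stress, and 2712 and 1064 with water. The block ended the watered call of OsPP2C34 and the stressed calls of OsPP2C40 and OsPP2C75. Signal limits OsPP2C25, OsPP2C31 and OsPP2C69, whose means lay at background in all 4 groups.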
